A study of Gallus gallus with 9 samples.

Results

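The 9 tricarboxylic acid cycle enzymes CS, IDH3A, OGDH, DLST, SUCLG1, SUCLA2, FH, MDH1 and MDH2 were described in chicken (Gallus gallus) primordial germ cells, the embryonic precursors of eggs and sperm. They were taken by name from the symbol column of the deposited result tables and matched by Ensembl gene identifier to the count files. All 9 were found among 24356 listed genes, and all 9 were among the 15475 tested. The 3 groups, of 3 libraries each, were cells with the genotype Lin28A knockout, cells with the genotype Lin28B knockout, and wild type cells with a control vector. No other allele or agent is named, and the labels leave out the means of disruption, whether lines were clones, or whether a group's libraries were separate cultures. The p-values therefore measure only the spread between these libraries, which may be technical.

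The tricarboxylic acid cycle is the ring of mitochondrial reactions that oxidizes acetyl groups to carbon dioxide and passes the electrons to the respiratory chain. Citrate synthase (CS) joins acetyl-CoA to oxaloacetate, the NAD-dependent isocitrate dehydrogenase (IDH3A) and the 2-oxoglutarate dehydrogenase complex (OGDH, DLST) release carbon dioxide, and succinyl-CoA synthetase (SUCLG1, SUCLA2) makes a nucleoside triphosphate. Fumarase (FH) and malate dehydrogenase (MDH2) then regenerate oxaloacetate, while MDH1 catalyses the malate reaction in the cytosol and takes part in the malate-aspartate shuttle. LIN28A and LIN28B bind RNA and are best known as inhibitors of let-7 microRNA processing. The series concerned their role in maintaining these germ cells.

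Libraries held 27.7 to 32.2 M counts in all, and the cycle genes took 0.157% to 0.176% of them. LIN28A stood at 117, 109 and 17.7 CPM in LIN28A knockout replicates 1, 2 and 3, against 160.4, 144 and 244 CPM in control (CPM is a gene's count per M counts of its library, with library totals scaled by TMM). LIN28B was no lower in libraries with the label LIN28B knockout: it had 55.0, 59.6 and 50.3 CPM there, against 52.3, 45.3 and 61.9 CPM in control, so LIN28B knockout below stands for the libraries with that label. In LIN28A knockout LIN28B had 40.3, 41.7 and 38.0 CPM, below all other libraries. Against control the log2 fold changes in LIN28A knockout were −0.41 ± 0.14 (SE) for LIN28B and −1.17 ± 0.53 for LIN28A. Neither passed (edgeR adjusted p = 0.327 and 0.479). Replicate 3 stood apart in every group. Over the 9 cycle genes replicates 1 and 2 differed by a root mean square of 0.086 (log2 CPM) in LIN28A knockout, 0.076 in LIN28B knockout and 0.049 in control. Replicate 3 differed from replicate 1 by 0.346, 0.318 and 0.198 in the same groups, against 0.725, 0.398 and 0.365 over 10142 other genes whose log2 CPM averaged 3 or more.

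The germ cell markers DDX4 and DAZL were abundant in all 9 libraries, at 516 to 820.3 and 1341 to 2102 CPM. The summed level of the 8 germ cell markers found was 3681 to 4101 CPM in LIN28A knockout, 4417 to 4565 CPM in the libraries labelled LIN28B knockout and 4439 to 4531 CPM in control. Fibroblast markers, all 10 found, summed to 472 to 1419 CPM in LIN28A knockout, 453 to 1025 CPM in LIN28B knockout and 586 to 998 CPM in control, with COL1A2, COL3A1 and COL1A1 the most abundant over the 9 libraries and LUM between 0.069 and 6.62 CPM. Erythroid markers (4 of 12 found) reached at most 3.01, 3.87 and 3.65 CPM in these groups, leukocyte markers (5 of 10 found) 10.8, 12.1 and 10.7 CPM, and endothelial markers (9 of 10 found) 38.0, 45.1 and 35.3 CPM. PECAM1, the most abundant endothelial marker, had 27.3, 28.0 and 4.58 CPM in LIN28A knockout, against 28.5, 26.1 and 15.0 CPM in control. CDH5, of the same list, had 0 counts in all 3 LIN28A knockout libraries, but was scarce in control too, at most 0.32 CPM. ERG, of the same list, had 7.74, 7.56 and 0.14 CPM in LIN28A knockout replicates 1, 2 and 3, against 0.22 to 0.71 CPM in control. Germ cell markers did not move together in LIN28A knockout: 3 lay above control and 5 below, with a median log2 fold change of −0.04. DAZL was lower there, at 1341 to 1506 CPM against 1804 to 2102 CPM in control. PRDM14 was higher, at 151 to 162 CPM against 116 to 119 CPM. Of the 10 fibroblast markers 4 lay above control and 6 below in LIN28A knockout. COL1A1 had 590, 517 and 73.3 CPM in LIN28A knockout replicates 1, 2 and 3, against 109, 102 and 49.6 CPM in control. COL1A2 had 534, 551 and 37.5 CPM in LIN28A knockout, against 221, 211 and 695 CPM in control. The lower germ cell sum and these collagen differences were seen in the same group as the lower MDH2 described next. Their part in that result was not tested.

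MDH2, the mitochondrial malate dehydrogenase, was the cycle gene that stood apart in LIN28A knockout. It fell to 69.8% of its level in the libraries labelled LIN28B knockout, and this difference passed the test. Against control MDH2 was lower by a similar amount, with a call that depended on the tool. The other 8 genes did not pass the edgeR test with group as its term over all 9 libraries in any comparison. Their 95% intervals spanned 0 except those of CS in LIN28A knockout against control and of SUCLA2 between the knockouts.

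MDH2 (ENSGALG00000001949) had 202, 196 and 177 CPM in LIN28A knockout replicates 1, 2 and 3, against 271, 269 and 282 CPM in the libraries labelled LIN28B knockout and 265, 264 and 253 CPM in control. Every LIN28A knockout library lay below all 6 others, and every library labelled LIN28B knockout lay slightly above the 3 controls. In bulk RNA, fewer cells of a type and less RNA per cell cannot be told apart. MDH2 averaged 191 ± 13.1 CPM in LIN28A knockout and 274 ± 6.75 CPM in LIN28B knockout (SD, n = 3 each), a log2 fold change of −0.52 ± 0.09 (SE), with a 95% interval of −0.72 to −0.32. This fall passed edgeR's quasi-likelihood test (adjusted p = 0.0434, over all genes tested). DESeq2 called it too (adjusted p = 1.53e-04), where 2.48% of its genes were called lower. MDH2 was 1 of 9 cycle genes called in this comparison, where 0.142% of all genes tested were called lower and 0.517% in either direction.

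The call of MDH2 between the knockouts sat near its threshold although its size was steady. Leaving out each library in turn gave log2 fold changes of −0.56 to −0.46. The call was kept without LIN28A knockout replicate 3 (edgeR adjusted p = 0.0159) and without LIN28B knockout replicate 3 (0.0443). Without control replicate 1, 2 or 3 the edgeR adjusted p was 0.116, 0.111 and 0.0608. Without LIN28A knockout replicate 1 or 2 it was 0.109 and 0.120, and without LIN28B knockout replicate 1 or 2 it was 0.242 and 0.206. The same-numbered libraries differed by −0.43, −0.46 and −0.67 on the log2 scale. Their shared sign follows from the groups not overlapping and is not separate support.

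Against control, MDH2 had a log2 fold change of −0.45 ± 0.09 (SE) in LIN28A knockout, with a 95% interval of −0.65 to −0.24, and did not pass edgeR (adjusted p = 0.126). Control libraries averaged 260.5 ± 6.70 CPM (SD, n = 3). The authors' deposited table gave −0.44 ± 0.12 and an adjusted p of 0.0149 for MDH2, where 0.734% of its genes with an adjusted p were called lower. DESeq2 on all 9 libraries also called it (adjusted p = 0.00407; 0.929% of genes lower), and edgeR did so without LIN28A knockout replicate 3 (adjusted p = 0.0301; 0.967% lower). With any other single library left out MDH2 did not pass (edgeR adjusted p = 0.125 to 0.487). It did not pass either when only the compared groups were fitted (edgeR adjusted p = 0.332). The same-numbered libraries differed by −0.39, −0.43 and −0.52, whose shared sign follows from the groups not overlapping. LIN28A transcript was far lower in replicate 3 of LIN28A knockout than in replicates 1 and 2. MDH2 in replicates 1, 2 and 3 came to 76.1%, 74.2% and 69.9% of the control library with that number. Whether MDH2 follows the level of LIN28A was not tested. In the libraries labelled LIN28B knockout MDH2 differed from control by 0.07 ± 0.09 (edgeR adjusted p = 0.824), with a 95% interval of −0.13 to 0.27.

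**Figure D1:**
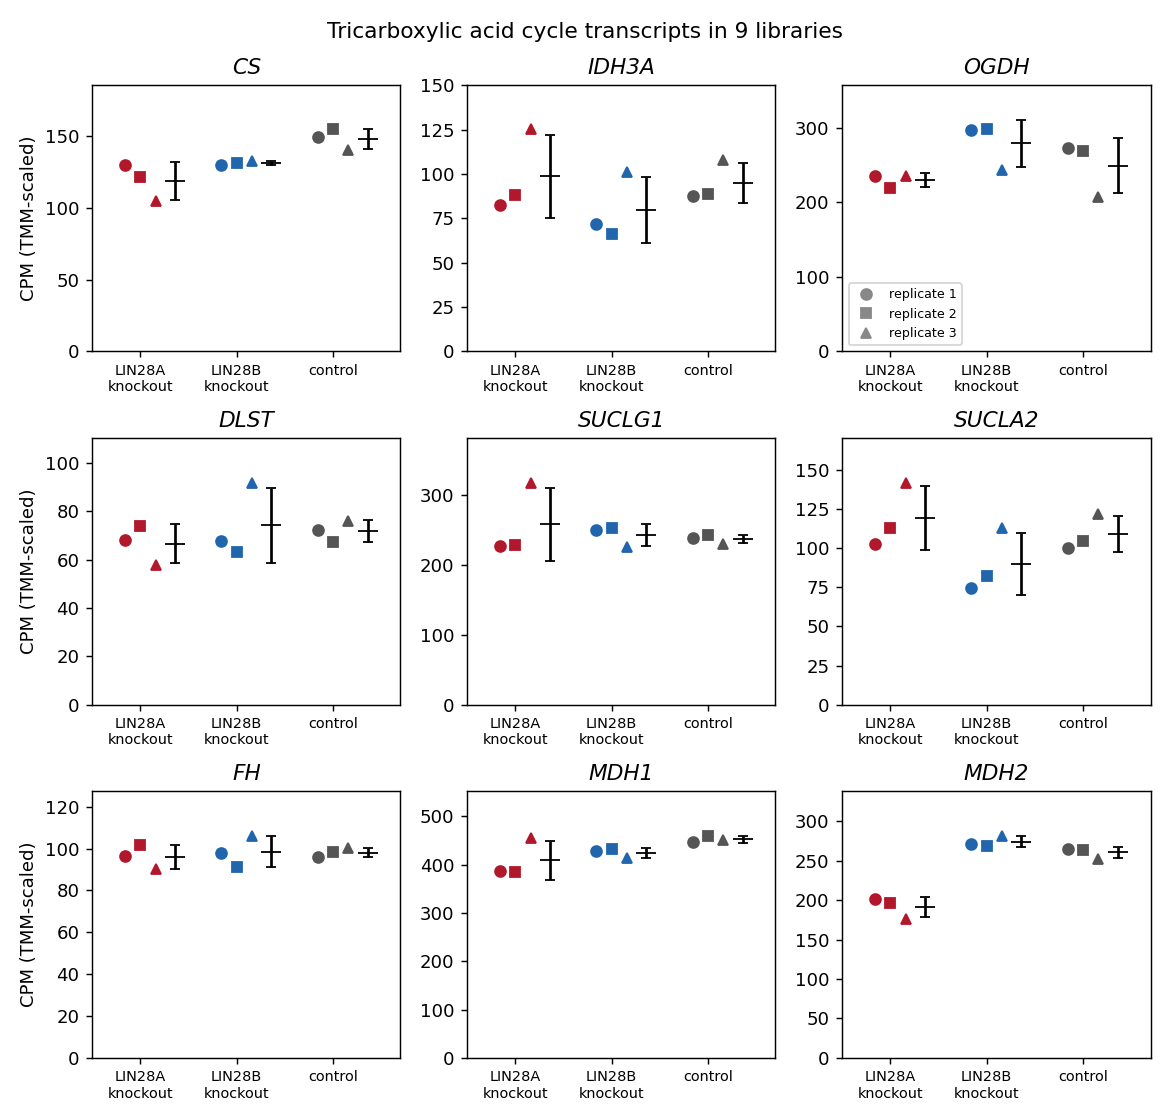
TMM-scaled CPM of the 9 tricarboxylic acid cycle genes in each library (vertical axes from 0, 1 panel per gene), for LIN28A knockout, LIN28B knockout and control. Circles, squares and triangles are replicates 1, 2 and 3, and the black marks are the mean and SD over 3 libraries. MDH2 lies at 177 to 202 CPM in LIN28A knockout and at 253 to 282 CPM in the other 6 libraries, while IDH3A and SUCLA2 are highest in replicate 3 of every group.

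MDH1 (ENSGALG00000008858), which catalyses the same reaction in the cytosol, was lower in LIN28A knockout replicates 1 and 2 but, unlike MDH2, not in replicate 3. It had 386, 386 and 456 CPM in LIN28A knockout, 428, 431 and 413 CPM in the libraries labelled LIN28B knockout and 446, 460.0 and 451 CPM in control. LIN28A knockout replicates 1 and 2 were the lowest of the 9 libraries for MDH1, and replicate 3 lay within the range of control. Its log2 fold change in LIN28A knockout against control was −0.14 ± 0.10 (edgeR adjusted p = 0.641). Within replicates 1 and 2 it was −0.23 ± 0.04 (edgeR adjusted p = 1.19e-04, where 30.1% of all genes were called). The libraries labelled LIN28B knockout lay below all controls for MDH1, by −0.09 ± 0.10 (edgeR adjusted p = 0.790). Between the knockouts MDH1 differed by −0.05 ± 0.10 (edgeR adjusted p = 0.805), with a 95% interval of −0.26 to 0.16. Within replicates 1 and 2 alone it was called lower there (edgeR adjusted p = 0.00484, where 39.5% of all genes were called).

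The ratio of MDH2 to MDH1 within a library sets the mitochondrial against the cytosolic transcript. It was chosen after the values were seen and is not corrected for transcript length, so it compares libraries and not genes. The ratio was 0.522, 0.507 and 0.387 in LIN28A knockout, 0.634, 0.624 and 0.682 in LIN28B knockout and 0.593, 0.573 and 0.561 in control. The 3 groups did not overlap in this ratio, with LIN28A knockout lowest. In LIN28A knockout the ratio was lowest in replicate 3, where MDH2 was low and MDH1 was not.

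Fumarase, which forms the malate that MDH2 uses, was steadier. FH (ENSGALG00000013165) had 96.6, 102 and 90.1 CPM in LIN28A knockout, 98.0, 91.3 and 106 CPM in LIN28B knockout and 95.7, 98.2 and 100.1 CPM in control. Its highest library was 1.18 times its lowest, the smallest span of the 9 genes, and all groups overlapped. The log2 fold changes of FH were −0.03 ± 0.10 in LIN28A knockout against control, 0.01 ± 0.10 in LIN28B knockout against control and −0.04 ± 0.10 between the knockouts (edgeR adjusted p = 0.951, 0.988 and 0.882). The widest of these 95% intervals ran from −0.26 to 0.19. The ratio of FH to MDH2 was 0.479, 0.519 and 0.510 in LIN28A knockout, against 0.361, 0.340 and 0.377 in LIN28B knockout and 0.362, 0.372 and 0.396 in control, so LIN28A knockout lay above all other libraries. With FH steady, this ratio repeats the fall of MDH2 and is not a separate result.

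**Figure D2:**
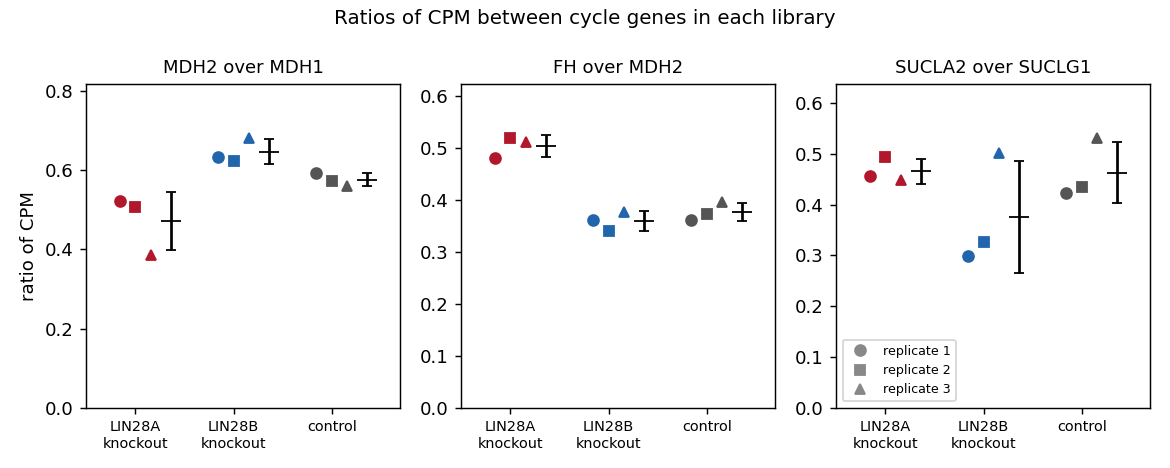
Ratios of CPM between pairs of cycle genes in each library (vertical axes from 0), for LIN28A knockout, LIN28B knockout and control, with circles, squares and triangles for replicates 1, 2 and 3 and black marks for the mean and SD over 3 libraries. MDH2 over MDH1 is 0.387 to 0.522 in LIN28A knockout, below the other 6 libraries, and FH over MDH2 is 0.479 to 0.519, above them, while SUCLA2 over SUCLG1 overlaps between the groups.

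CS (ENSGALG00000030466), the entry enzyme of the cycle, was the other gene whose LIN28A knockout libraries all lay below control. It had 130.4, 122 and 105 CPM in LIN28A knockout, 130.4, 132 and 133 CPM in LIN28B knockout and 149, 155 and 141 CPM in control. Both knockout groups lay below the 3 controls without overlap, and LIN28A knockout replicate 3 was the lowest library. CS averaged 119 ± 13.1 CPM in LIN28A knockout and 148 ± 7.21 CPM in control (SD, n = 3 each). The log2 fold change was −0.32 ± 0.11 with a 95% interval of −0.55 to −0.08, which did not pass after adjustment over all genes (edgeR adjusted p = 0.327, unadjusted p = 0.0133). The authors' deposited table had −0.31 ± 0.14 (adjusted p = 0.372) for CS in the same comparison. For LIN28B knockout against control CS was at −0.17 ± 0.11 (edgeR adjusted p = 0.652), and both knockouts share these control libraries. Between the knockouts CS differed by −0.15 ± 0.11 (edgeR adjusted p = 0.482), with values of 0.00, −0.11 and −0.35 in replicates 1, 2 and 3.

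IDH3A and SUCLA2 had the most alike profiles of any pair of cycle genes, and both were highest in replicate 3 of every group. IDH3A (ENSGALG00000037401) encodes the catalytic subunit of the NAD-dependent isocitrate dehydrogenase, and SUCLA2 (ENSGALG00000016993) the subunit that makes succinyl-CoA synthetase use ADP. After centring each gene on its own mean, their log2 CPM differed by a root mean square of 0.089 over the 9 libraries, the smallest of all pairs, while SUCLA2 and MDH2 were the least alike pair, at 0.446. IDH3A had 82.4, 88.2 and 125 CPM in LIN28A knockout, 72.0, 66.3 and 101 CPM in LIN28B knockout and 87.8, 88.8 and 108 CPM in control. Replicate 3 of IDH3A lay above replicates 1 and 2 of its group by 0.55, 0.55 and 0.29 on the log2 scale in these groups.

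SUCLA2 had 103, 113 and 142 CPM in LIN28A knockout, 74.9, 82.4 and 113 CPM in LIN28B knockout and 100.4, 105 and 122 CPM in control. Replicate 3 was again the highest of each group, and replicates 1 and 2 labelled LIN28B knockout were the lowest of all libraries for SUCLA2. In LIN28A knockout against LIN28B knockout SUCLA2 was at 0.41 ± 0.18, with a 95% interval of 0.01 to 0.80, and did not pass (edgeR adjusted p = 0.269, unadjusted p = 0.0451). Its same-numbered libraries differed by 0.46, 0.45 and 0.33, and IDH3A by 0.20, 0.41 and 0.31. IDH3A was at 0.31 ± 0.20 in this comparison (edgeR adjusted p = 0.437). Against control SUCLA2 was at 0.13 ± 0.18 in LIN28A knockout and −0.28 ± 0.18 in LIN28B knockout (edgeR adjusted p = 0.851 and 0.665). IDH3A was at 0.06 ± 0.20 and −0.25 ± 0.20 (edgeR adjusted p = 0.952 and 0.732), and in LIN28A knockout its same-numbered libraries differed from control by −0.091, −0.0088 and 0.21.

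SUCLG1 (ENSGALG00000015961), the alpha subunit that pairs with SUCLA2, followed another course. It had 226, 228 and 317 CPM in LIN28A knockout, 249.8, 252 and 225 CPM in LIN28B knockout and 238, 242 and 229.9 CPM in control. LIN28A knockout replicate 3 stood above the other 8 libraries, which lay within 225 to 252 CPM. Its log2 fold changes were 0.12 ± 0.14 in LIN28A knockout against control, 0.04 ± 0.14 in LIN28B knockout against control and 0.09 ± 0.14 between the knockouts (edgeR adjusted p = 0.801, 0.947 and 0.768). Same-numbered LIN28A knockout libraries of SUCLG1 differed from control by −0.073, −0.081 and 0.46 and from LIN28B knockout by −0.14, −0.14 and 0.50, so replicate 3 had the opposite sign. Without LIN28A knockout replicate 3 the first and last of these were −0.06 and −0.09. The ratio of SUCLA2 to SUCLG1 was 0.455, 0.494 and 0.448 in LIN28A knockout, 0.300, 0.326 and 0.501 in LIN28B knockout and 0.422, 0.434 and 0.532 in control, with overlap between all groups.

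OGDH (ENSGALG00000014155) and DLST (ENSGALG00000010286) encode the decarboxylating and the succinyl-transferring components of the 2-oxoglutarate dehydrogenase complex. OGDH had 236, 219 and 236 CPM in LIN28A knockout, 297, 298 and 243 CPM in LIN28B knockout and 273, 269 and 207 CPM in control. The LIN28A knockout libraries lay below all those labelled LIN28B knockout, while replicate 3 of control was lowest of all. Between the knockouts OGDH differed by −0.28 ± 0.13, with a 95% interval of −0.57 to 0.01 (edgeR adjusted p = 0.294), and by −0.33, −0.45 and −0.04 in replicates 1, 2 and 3. Against control OGDH was at −0.12 ± 0.13 in LIN28A knockout and 0.16 ± 0.13 in LIN28B knockout (edgeR adjusted p = 0.802 and 0.732). In LIN28A knockout the sign differed between replicates, at −0.21, −0.30 and 0.19.

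DLST had 68.2, 73.8 and 57.7 CPM in LIN28A knockout, 67.5, 63.3 and 91.9 CPM in LIN28B knockout and 72.2, 67.2 and 76.1 CPM in control. Its lowest and highest libraries were the replicates 3 of LIN28A knockout and of LIN28B knockout, and the groups overlapped in every comparison. DLST was at −0.11 ± 0.16 in LIN28A knockout against control, 0.05 ± 0.16 in LIN28B knockout against control and −0.16 ± 0.16 between the knockouts (edgeR adjusted p = 0.856, 0.938 and 0.618). In replicates 1, 2 and 3 these differences of DLST were −0.081, 0.14 and −0.40 in LIN28A knockout against control, −0.097, −0.085 and 0.27 in LIN28B knockout against control and 0.015, 0.22 and −0.67 between the knockouts. Replicate 3 thus held the largest difference of DLST in each comparison. OGDH and DLST differed from each other by a root mean square of 0.286 in centred log2 CPM, so the profiles of these partners of 1 complex were unlike each other.

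**Figure D3:**
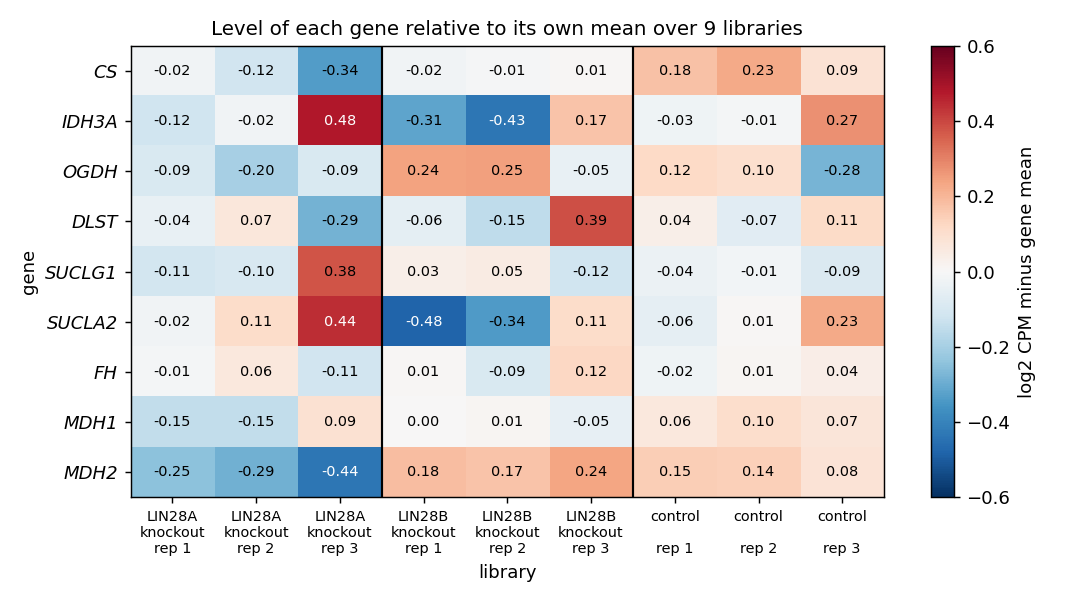
Log2 CPM of each cycle gene minus its own mean over the 9 libraries (colour scale and printed values), with genes in rows and the libraries of LIN28A knockout, LIN28B knockout and control in columns. MDH2 is negative in all LIN28A knockout libraries and positive elsewhere, while IDH3A and SUCLA2 are positive in replicate 3 of each group.

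Counted together, 0 of 9 cycle genes were called in LIN28A knockout against control by edgeR, where 0.00646% of all genes were called. At an unadjusted p under 0.05, 2 were lower (CS and MDH2) and 0 higher, against 5.13% of all genes lower and 10.6% in either direction. DESeq2 called 1 (MDH2, lower), where it called 0.929% of its genes lower and 333 of 15719 in either direction. Of the 9 genes 6 lay below control and 3 above, with a median log2 fold change of −0.11, beside 0.02 over all genes tested. The groups did not overlap for 2 of the 9, both lower, against 9.78% of all genes lower and 18% in either direction.

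For LIN28B knockout against control 0 of 9 were called by edgeR (background 0.0129%), 0 by DESeq2 (background 0.751%) and 0 at an unadjusted p under 0.05 (background 8.87%). There were 5 above and 4 below control, with a median of 0.01 beside −0.0011 over all genes. The groups did not overlap for 3 of 9 (CS and MDH1 lower, MDH2 higher), a share set beside 22.9% of all genes. For LIN28A knockout against LIN28B knockout 6 lay below and 3 above, with a median of −0.05 beside 0.0039 over all genes. The groups did not overlap for 2 of 9 (OGDH and MDH2, both lower), beside 24.3% of all genes. At an unadjusted p under 0.05, MDH2 was lower and SUCLA2 higher, against 18% of all genes in either direction.

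**Figure D4:**
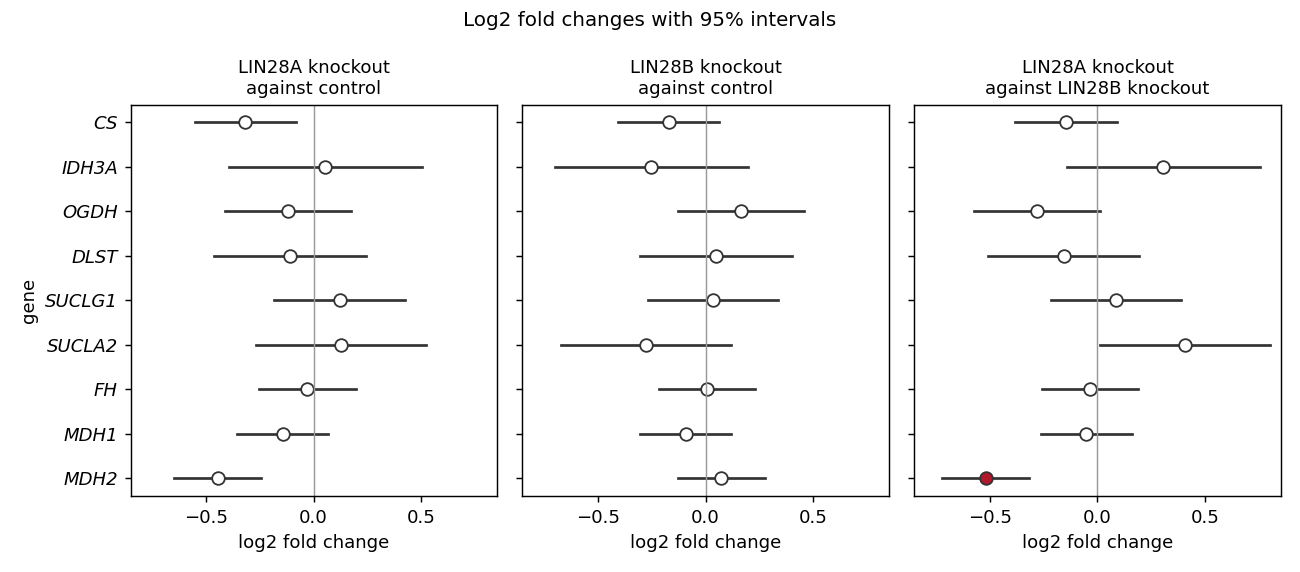
Log2 fold changes (horizontal axes) of the 9 cycle genes from edgeR, with 95% intervals, for each knockout against control and for LIN28A knockout against LIN28B knockout. The filled point is MDH2 at −0.52, the 1 value with an adjusted p under 0.05, and open points did not pass.

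Summed over the 9 genes, cycle transcripts came to 1530.2, 1527 and 1705 CPM in LIN28A knockout, 1689, 1686 and 1707 CPM in LIN28B knockout and 1727, 1748 and 1687 CPM in control. LIN28A knockout replicates 1 and 2 held the lowest sums, and replicate 3 lay within the range of control although its MDH2 and CS were the lowest of all. Within replicates 1 and 2 alone edgeR called 4 of 9 lower in LIN28A knockout against control (CS, OGDH, MDH1 and MDH2). There 2322 of 15696 genes were called lower, and 30.1% were called in either direction. In the same libraries 4 of 9 were called for LIN28B knockout against control (CS, IDH3A and SUCLA2 lower, OGDH higher; background 31.2%). Between the knockouts 6 of 9 were called (IDH3A and SUCLA2 higher; OGDH, SUCLG1, MDH1 and MDH2 lower; background 39.5%). Replicates 1 and 2 of a group were closer to each other than to replicate 3, so these calls were made against a smaller spread.

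Genes around the cycle were read from 4 lists. Of 39 tested, 0 were called by edgeR in LIN28A knockout against control, and 0 by DESeq2, which called 333 of 15719 genes there. With an unadjusted p under 0.05 there were 4 lower and 3 higher, beside 10.6% of all genes in either direction. For LIN28B knockout against control 0 were called (1 higher and 1 lower unadjusted, beside 8.87% of all genes, and 0 by DESeq2, background 0.751%). Between the knockouts edgeR called 0 (3 higher and 3 lower unadjusted, beside 18% of all genes), and DESeq2 called 2 higher, IDH1 and PDK4, where it called 6.05% of all genes in either direction. The medians were −0.02 in each comparison.

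Among the other cycle enzymes, with 10 of 11 tested, SDHA had the largest difference in LIN28A knockout against control. SDHA, the flavoprotein of succinate dehydrogenase, had 64.5, 63.9 and 78.0 CPM in LIN28A knockout, against 56.1, 55.7 and 54.2 CPM in control, above all controls, by 0.31 ± 0.12 (edgeR adjusted p = 0.412). The other succinate dehydrogenase subunits did not follow it, with SDHD at −0.24 ± 0.10 (edgeR adjusted p = 0.463). OGDHL, a relative of OGDH, had the largest difference for LIN28B knockout against control, at −0.38 ± 0.27 (edgeR adjusted p = 0.703), and between the knockouts, at 0.48 ± 0.27 (edgeR adjusted p = 0.373).

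At pyruvate entry, with 10 of 13 tested, the largest difference was that of PDK4, a kinase that inhibits pyruvate dehydrogenase. PDK4 was scarce, with 2.95, 2.74 and 3.17 CPM in LIN28A knockout, 1.30, 1.43 and 1.27 CPM in LIN28B knockout and 2.55, 1.84 and 1.49 CPM in control. The 3 groups did not overlap. PDK4 was at 1.15 ± 0.31 between the knockouts (edgeR adjusted p = 0.119, DESeq2 adjusted p = 0.0123), 0.59 ± 0.31 in LIN28A knockout against control and −0.56 ± 0.31 in LIN28B knockout against control (edgeR adjusted p = 0.546 and 0.625). The more abundant PDK1, of the same list, went the other way in LIN28A knockout. It had 175, 199 and 200 CPM there, against 232, 212 and 261 CPM in control, at −0.30 ± 0.11 (edgeR adjusted p = 0.356). PDK3 was at 0.07 ± 0.17 in that comparison (edgeR adjusted p = 0.920). PDK1 and PDK3 were named after their values were seen. PDHB, a subunit of pyruvate dehydrogenase, had 97.3, 103 and 77.5 CPM in LIN28A knockout and 125, 124 and 121 CPM in LIN28B knockout, and at −0.41 ± 0.12 this difference missed the threshold (edgeR adjusted p = 0.141).

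The list of anaplerosis, export and shuttles, with 12 of 17 tested, held IDH1, the cytosolic NADP-dependent isocitrate dehydrogenase. It was higher in every LIN28A knockout library without passing the edgeR test with group as its term over all 9 libraries. IDH1 had 34.8, 35.3 and 41.2 CPM in LIN28A knockout, 27.0, 23.7 and 25.0 CPM in LIN28B knockout and 26.1, 24.8 and 31.5 CPM in control. It was at 0.43 ± 0.14 in LIN28A knockout against control (edgeR adjusted p = 0.319) and 0.55 ± 0.14 between the knockouts (edgeR adjusted p = 0.105, DESeq2 adjusted p = 0.0122). GOT2, the mitochondrial aspartate aminotransferase that works beside MDH2 in the malate-aspartate shuttle, had 148, 139 and 102 CPM in LIN28A knockout, 159.8, 151 and 175 CPM in LIN28B knockout and 169, 169 and 159 CPM in control. GOT2 lay below both other groups in all LIN28A knockout libraries, at −0.36 ± 0.14 against control and −0.32 ± 0.14 against LIN28B knockout (edgeR adjusted p = 0.407 and 0.268), and was chosen for mention after its values were seen, as were SDHD and PDHB. ME1, the cytosolic malic enzyme, had the largest difference for LIN28B knockout against control, at 0.44 ± 0.31 (edgeR adjusted p = 0.697).

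Regulators of mitochondrial genes, with 7 of 10 tested, differed little. TFB2M, a mitochondrial transcription factor, had the largest difference in all 3 comparisons, at −0.13 ± 0.18 in LIN28A knockout against control, 0.23 ± 0.18 in LIN28B knockout against control and −0.36 ± 0.18 between the knockouts (edgeR adjusted p = 0.848, 0.726 and 0.314). All 7 lay below control in LIN28A knockout, with a median of −0.10, from −0.13 for TFB2M to −0.0082 for TFB1M. Over all genes tested 7320 of 15475 lay below control, with a median of 0.02. The groups overlapped for all 7, and only GABPA was lower in every same-numbered library. In replicates 1, 2 and 3 PPARGC1A differed by 0.059, 0.13 and −0.52 and POLRMT by 0.074, 0.045 and −0.21. TFB1M differed by −0.16, −0.047 and 0.15. Of the 7 regulators 0 passed at an unadjusted p under 0.05 by edgeR or when adjusted by DESeq2.

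The median profile of the 9 cycle genes, in log2 CPM relative to each gene's mean, was −0.09, −0.10 and −0.09 in LIN28A knockout, 0.00, −0.01 and 0.11 in LIN28B knockout and 0.04, 0.01 and 0.08 in control. Among 9200 other genes with a symbol whose log2 CPM averaged 3 or more, the nearest to this profile over the 9 libraries were DAPK1, TBL3, NCBP2, THOC3 and RNMT. Their root mean square differences from it were 0.031 for DAPK1 to 0.036 for RNMT. The cycle genes themselves differed from their own median by 0.070 for FH to 0.280 for SUCLA2. The nearest genes were picked as the smallest distances among 9200, so their being closer follows from that choice and is not a result.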

How the data were processed

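The authors deposited raw counts, whole numbers of reads per Ensembl gene, for 9 poly(A) RNA libraries made, per the labels' protocols, with a NEBNext Ultra Directional kit. Per the submitters' processing notes, the tools were edgeR 3.38.4, DESeq2 1.36.0, featureCounts 2.0.3 and HISAT2 2.1.0, and the builds galGal6 and GRCg6a, whose roles are not stated. Neither the annotation release nor the strandedness of counting is given in the sources used here, and overlapping genes may share reads. The deposited tables of each knockout against control hold, per the file headers, log2 fold changes with their errors and p-values. Labels of the LIN28B knockout libraries name the deposited table of LIN28A knockout. Symbols came from those tables, which pair 13354 of 24356 identifiers with one. No coordinates or sequences are printed, since the reference gene table used another assembly.

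Tests used edgeR 4.0.16 (R 4.3.3): TMM scaling, default filterByExpr, a quasi-likelihood model with group as its term over all 9 libraries, and Benjamini-Hochberg adjustment over 15475 genes, called at an adjusted p under 0.05. Standard errors and 95% intervals come from the F statistic. Alternatives were DESeq2 1.42.0, other scaling, filters and groups of libraries, and the replicate number as a block. Deviations from group means of same-numbered libraries correlated at 0.403, 0.258 and 0.391 between LIN28A knockout and control and at 0.394, 0.427 and 0.555 between LIN28B knockout and control, all over 0.1, the minimum at which numbers were taken as pairs. Replicates 1 and 2 of different numbers correlated about as highly, at 0.317 and 0.334 with LIN28A knockout and 0.423 and 0.418 with LIN28B knockout, so these values set replicate 3 apart and do not show pairing by each number. Between the knockouts the values were 0.130, 0.0873 and 0.124.

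Log2 CPM used a prior count of 2. A floor of 3 counts equalled 0.0931 to 0.108 CPM and covers counting error only. The members and lists were chosen with earlier results of these data known. Named genes were the 9 members, LIN28A and LIN28B, genes called or with the largest difference in each of the 4 lists around the cycle, and the 5 nearest to the median profile. Other genes named were chosen after their values were seen.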

Additional observations from a re-analysis of the deposited data

How the results depend on the processing

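MDH2 kept its direction in LIN28A knockout against control (log2 −0.48 to −0.39 with 1 library left out) and between the knockouts under all alternatives run, while its call between the knockouts was lost when only the compared groups were fitted (edgeR adjusted p = 0.181). Against control its edgeR adjusted p was 0.0882 with the replicate block and 0.332 when only the compared groups were fitted.

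With the replicate block the cycle genes called were 0 and 0 against control and 2 between the knockouts (MDH2 lower, SUCLA2 higher at an adjusted p of 0.0392). The blocked fit called 890 of 15475 genes between the knockouts. Genes called overall were 1 for LIN28A knockout against control, 2 for LIN28B knockout against control and 80 between the knockouts. They became 13, 24 and 890 with the block, 333, 118 and 951 with DESeq2, 0, 1 and 9 when only the compared groups were fitted, and 4724, 4898 and 6196 with replicates 1 and 2 only. With no filter they were 5 in LIN28A knockout against control and 136 between the knockouts. With 1 library left out they ran from 0 to 453, 0 to 166 and 0 to 474. The cycle genes called then ran from 0 to 1 in LIN28A knockout against control and between the knockouts, DESeq2 called 1 in LIN28A knockout against control, and fitting only the compared groups called 0 between the knockouts. With replicates 1 and 2 only, 4, 4 and 6 were called, and 17, 10 and 17 of the 39 genes around the cycle. Between the knockouts 2 of those 39 were called with DESeq2, and 2 with the block (IDH1 and PDHB).

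Signs of uncalled genes turned in several settings. With replicates 1 and 2 only, IDH3A was at −0.049, DLST at 0.027, SUCLG1 at −0.077 and FH at 0.032 in LIN28A knockout against control. In LIN28B knockout against control DLST was at −0.093 and FH at −0.036, and between the knockouts DLST was at 0.12, SUCLG1 at −0.14 (adjusted p = 0.0165) and FH at 0.068. With 1 library left out, LIN28A knockout against control ran from −0.15 to 0.17 for IDH3A, −0.057 to 0.21 for SUCLG1, −0.017 to 0.22 for SUCLA2 and −0.071 to 0.016 for FH. LIN28B knockout against control ran from −0.14 to 0.15 for DLST and −0.051 to 0.058 for FH, and between the knockouts from −0.26 to 0.026 for DLST, −0.091 to 0.17 for SUCLG1 and −0.087 to 0.023 for FH. Other uncalled values moved by over 1.5 times without turning sign. LIN28A knockout against control ran from −0.24 to −0.050 for OGDH, −0.19 to −0.016 for DLST and −0.23 to −0.10 for MDH1. LIN28B knockout against control ran from −0.46 to −0.13 for IDH3A, 0.044 to 0.25 for OGDH, 0.0056 to 0.085 for SUCLG1 and −0.47 to −0.16 for SUCLA2. Between the knockouts they ran from −0.22 to −0.060 for CS, 0.099 to 0.51 for IDH3A, 0.26 to 0.60 for SUCLA2 and −0.13 to −0.010 for MDH1. The cause was not tested. Other scaling moved the median of all genes by under 0.1 on the log2 scale. At 3 libraries a group, the 95% intervals of the cycle genes leave differences of the sizes they span undecided.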
